A study of Mus musculus with 12 samples.

Results

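The genes described here encode the mitochondrial respiratory chain. Members were taken by gene symbol: nuclear subunits of complex I (Nduf genes of the a, b, c, s and v series), complex II (Sdha to Sdhd), complex III (symbols starting with Uqcr) and complex IV (Cox4 to Cox8 genes), together with the genes of mitochondrial DNA for Nd, cytochrome b, Co and Atp subunits, without pseudogenes. This gave 80 genes of 22667 gene IDs in the tables, of which 67 are nuclear and 13 lie on mitochondrial DNA. The nuclear members comprise 37 genes of complex I, 4 of complex II, 8 of complex III and 18 of complex IV, and the mitochondrially encoded members comprise 7, 1 and 3 genes of complexes I, III and IV and 2 of complex V. The rule uses symbols only, no measured value.

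The RNA was extracted from mouse cerebral cortex or hippocampus at stage E18.5, close to birth. Control embryos are labelled wild type. Knockout (KO) embryos lack functional Srrm4 (nSR100), a neuronal splicing regulator. Their conditional allele lost exons 7 and 8 after a cross to mice with Cre recombinase driven by a cytomegalovirus promoter, which acts in the whole body, and the line was kept on C57Bl/6N. Both genotypes were profiled in both tissues, which gives 4 groups of 2 libraries. The labels do not state whether the 2 libraries of a group are separate animals, or whether both tissues came from the same embryos. P-values reflect the spread between these libraries. The Y-linked sums given with the depth below differ more than 3-fold within each group, so the 2 libraries of a group are not repeats of the same RNA. Srrm4 RPKM (reads scaled by gene length and library total) was 25.2 and 24.2 in replicates 1 and 2 of cortex control, against 8.12 and 6.97 for cortex KO. In hippocampus it was 26.0 and 27.9 in control and 5.68 and 6.16 in KO, so all 4 KO libraries lay below all 4 controls. The gene total also counts reads outside the excised exons.

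Electrons enter the respiratory chain at complex I from NADH and at complex II from succinate, pass through complex III to complex IV, and reduce oxygen there. The protons pumped by complexes I, III and IV drive the ATP synthase, complex V. The catalytic cores of complexes I, III and IV combine proteins translated inside the mitochondrion with proteins imported from the cytosol, so transcripts of both genomes are needed for 1 machine. Neurons depend on it heavily for the energy of ion pumping and synaptic transmission. Tissue samples were bulk, so fewer cells of a type and less RNA per cell cannot be told apart.

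Libraries held 58210499 to 140052443 counts, and replicate 1 was the deeper one in each group. A floor of 3 counts is 0.0214 to 0.0515 CPM (counts scaled to a common library total). A pair of libraries stood apart. In hippocampus KO replicate 1 the erythroid markers (7 genes, none at 0 in all libraries) summed to 101 CPM against 44.7 to 76.9 CPM elsewhere, and the 10 neuron markers summed to 6941 CPM, the lowest of all, with 7041 CPM in replicate 2 of the same group. In hippocampus control replicate 2 the choroid plexus markers (6 genes, none at 0 in all libraries) summed to 201 CPM, against 26.1 to 45.4 CPM in the other hippocampus libraries and 3.78 to 10.6 CPM in cortex. Hippocampal markers (8 genes) summed to 2612 to 2958 CPM in hippocampus and 581 to 657 CPM in cortex, and cortical markers (5 genes) to 464 to 533 CPM and 1170 to 1274 CPM, as the tissue labels say. Y-linked genes summed to 144 and 148 CPM in replicate 2 of the control groups, to 0.319 and 0.412 CPM in replicate 2 of the KO groups and to 25.4 to 49.8 CPM in replicate 1 of all groups. The part of sex in a KO difference was not tested.

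Sequences show how closely some mitochondrial transcripts resemble nuclear copies, which bears on how far their reads can be assigned. The first 60 bases of mt-Nd3 (chrM:9459-9806, plus strand, protein coding, 348 nt) and of the unprocessed pseudogene Gm28438 (chr1:24612775-24613119, minus strand, 345 nt), from GENCODE M21 on GRCm38, are given below, with the base that differs in capitals. Positions count from 1 at the first base of mt-Nd3, and the substitution from mt-Nd3 to Gm28438 is T3C, the 1 difference over the shared length.
mt-Nd3: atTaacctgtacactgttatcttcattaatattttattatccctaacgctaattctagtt
Gm28438: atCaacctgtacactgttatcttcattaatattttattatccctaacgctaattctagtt

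The genes for the proton-channel subunit (mt-Atp6, chrM:7927-8607) and its small partner (mt-Atp8, chrM:7766-7969) overlap on the same strand. They share the following 43 bases.
mt-Atp8 end and mt-Atp6 start: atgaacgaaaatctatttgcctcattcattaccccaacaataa

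The length behind the deposited RPKM, read back from counts and RPKM, equalled the number of 50-base stretches in the annotated gene for 10 of the 12 mitochondrially encoded members with an RPKM. For mt-Co1, the catalytic subunit of complex IV, this was 1496 nt for a gene of 1545 nt. The exceptions were mt-Atp6, with 83 nt where the gene holds 632 such stretches, and mt-Atp8, with 24 nt where it holds 155. Their deposited RPKM (means of 10490 and 9913) would be 1378 and 1535 per stretch count. Their place at the top of the deposited order thus rests on those lengths. Whether their counts also cover only those lengths is not given, so their levels and shares of counts are uncertain. mt-Nd4l had 0 counts in all 8 libraries and no RPKM, and 245 of its 248 stretches also occur in Gm10222 (chr1:24612407-24612700), which is identical to it over the shared length and was listed with 0 counts as well. Of the 299 stretches of mt-Nd3, 293 occur in Gm28438. The shared number was 632 of 635 for mt-Co2, 734 of 735 for mt-Co3, 629 of 632 for mt-Atp6 and 827 of 1329 for mt-Nd4, each with 1 nuclear copy. Of the 1496 stretches of mt-Co1 only 731 occur in no other annotated transcript, and for mt-Co2 this number was 0. These nuclear copies have no line in the tables, and counts of these genes are uncertain to that extent. mt-Nd1, mt-Cytb, mt-Nd6 and mt-Atp8 share no such stretch with any other annotated transcript. Copies outside annotated transcripts were not searched for.

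Promoters are shown for 3 nuclear members that differed between the tissues, in both directions, because binding sites for NRF1, YY1 and ETS factors are known from respiratory chain genes. Each is the 250 bases before the start site from RefSeq (GRCm38.p6), with matches to CCGGAAG (ETS), GCGCATGC (NRF1) and AAGATGGCG (YY1) on either strand in capitals. Cox6a1 (chr5:115348959-115349208, minus strand), lower in hippocampus below, has an NRF1 match on each strand, starting 162 and 160 bases before the start site and overlapping each other, and an ETS match 16 bases before it. Uqcr11 (chr10:80406822-80407071, minus strand), higher in hippocampus, has an ETS match 66 bases before the start site. Ndufc2 (chr7:97399753-97400002, plus strand), also higher in hippocampus, has no match.
Cox6a1: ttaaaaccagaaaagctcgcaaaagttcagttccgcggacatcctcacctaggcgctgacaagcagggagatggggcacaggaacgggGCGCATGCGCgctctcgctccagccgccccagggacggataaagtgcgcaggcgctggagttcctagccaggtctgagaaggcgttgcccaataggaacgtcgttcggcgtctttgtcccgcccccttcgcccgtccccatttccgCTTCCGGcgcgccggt
Uqcr11: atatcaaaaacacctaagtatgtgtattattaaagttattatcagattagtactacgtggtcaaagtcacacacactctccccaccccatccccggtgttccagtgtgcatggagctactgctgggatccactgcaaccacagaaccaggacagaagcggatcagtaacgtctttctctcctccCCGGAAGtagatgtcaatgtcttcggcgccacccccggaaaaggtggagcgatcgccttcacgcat
Ndufc2: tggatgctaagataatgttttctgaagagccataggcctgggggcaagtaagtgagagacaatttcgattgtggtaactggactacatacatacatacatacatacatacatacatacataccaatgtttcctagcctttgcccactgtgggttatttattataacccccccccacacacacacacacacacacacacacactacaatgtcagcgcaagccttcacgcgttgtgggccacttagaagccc

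Over windows that add the 50 bases after the start site, 53 of the 67 nuclear members were in the promoter table. The ETS letters occurred in 11 of these (20.8%) and in 17.0% of 12218 tested genes in the table. The NRF1 letters occurred in 7 (13.2%, against 5.27%), namely Ndufa6, Ndufa8, Ndufa11, Sdhb, Uqcrc1, Uqcr11 and Cox6a1. The YY1 letters occurred in 5 (9.43%, against 2.95%), namely Ndufa9, Ndufc1, Ndufs4, Ndufs6 and Ndufs7. Members with NRF1 letters included genes that were higher (Uqcr11), lower (Ndufa8, Uqcrc1, Cox6a1) and not called between the tissues.

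Mitochondrially encoded members had far higher deposited levels per length than nuclear ones. Their mean RPKM over the 8 libraries ranged from 663 for mt-Nd6, the member transcribed from the other strand, to 10490 for mt-Atp6, with mt-Nd5 at 685, mt-Nd3 at 1157, mt-Nd2 at 1617, mt-Nd4 at 2565, mt-Nd1 at 2565, mt-Cytb at 4160, mt-Co1 at 6360, mt-Co3 at 6869, mt-Co2 at 7735 and mt-Atp8 at 9913. The Co genes of complex IV thus stood above cytochrome b of complex III, and that above the Nd genes of complex I. Of the 67 nuclear members, 59 had a mean RPKM of at least 5, from 12.3 (Ndufb2) to 364 (Cox4i1) with a median of 82.9. The highest were Cox4i1, Cox6b1 (362) and Cox6a1 (323), all supernumerary subunits of complex IV, then Ndufa4 (270), which the symbol rule counts under complex I and which is now known as a complex IV subunit, Uqcrh (240), the hinge protein of complex III, and Cox8a (230).

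The nuclear core subunits of complex I, some of which carry its flavin and iron-sulfur centres, included Ndufs3 (64.9 RPKM), Ndufv1 (59.996) and Ndufv2 (55.5). Among its accessory subunits, which surround the core, Ndufb9 (136), Ndufa3 (122) and Ndufa7 (114) followed Ndufa4. Complex II, which has no mitochondrially encoded subunit, had Sdhb at 98.8, Sdha at 67.7, Sdhd at 59.9 and Sdhc at 27.8. In complex III, Uqcr10 (120), Uqcr11 (117) and Uqcrc2 (117) followed Uqcrh.

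**Figure D1:**
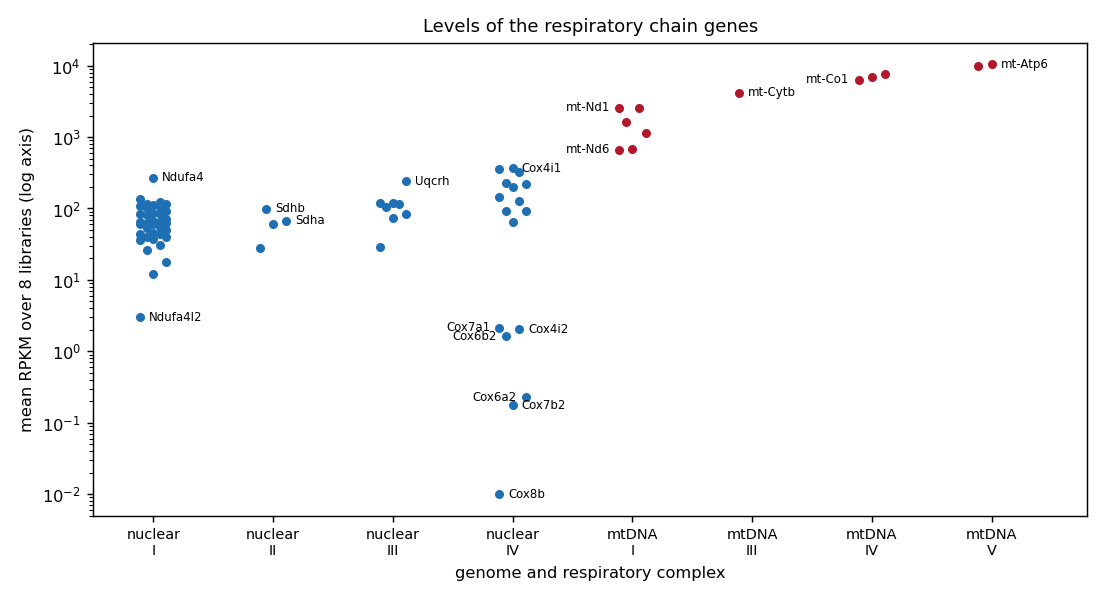
Mean RPKM over 8 libraries on a log axis for each member with a value above 0, by genome (nuclear in blue, mitochondrial DNA, mtDNA, in red) and complex. The lowest mtDNA member (663 RPKM) lies above the highest nuclear member (364 RPKM), and 7 nuclear members of complex IV and Ndufa4l2 sit below 5 RPKM or at 0 (Cox8c, at 0, and mt-Nd4l, without an RPKM, are not drawn).

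Alternative isoforms of complex IV subunits, several of them known from muscle, lung or testis, had very low levels here. Cox4i2, the isoform known from lung, was 0.371% to 0.719% of the summed RPKM of Cox4i1 and Cox4i2 over the 8 libraries. Cox6a2, the heart and muscle isoform, made up 0.0452% to 0.104% with Cox6a1, and Cox6b2, the testis isoform, 0.270% to 0.765% with Cox6b1. Cox7a1, another muscle isoform, reached 0.982% to 2.10% of its sum with Cox7a2. Cox7a2l, known for its role in assembling supercomplexes, was by contrast nearly as high as Cox7a2, at 45.9% to 48.8% of their sum. Cox7b2 gave 4 to 15 counts a library, Cox8b 1 count in each of 2 libraries and Cox8c none, while their partners Cox7b and Cox8a stood at 91.2 and 230 RPKM. Cox8b, Cox8c and mt-Nd4l were below the count filter, which left 77 members (65 nuclear, 12 mitochondrially encoded) among the 16111 genes tested. Ndufa4l2, a paralog of Ndufa4 known as a hypoxia-induced gene, was 0.851% to 1.26% of the sum with Ndufa4.

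Mitochondrially encoded transcripts took a similar share of counts in most libraries. In cortex the share was 3.33% and 3.35% for controls (replicates 1 and 2 throughout) and 3.44% and 3.14% for KO. In hippocampus it was 3.39% and 3.20% for controls and 4.40% and 3.22% for KO. Hippocampus KO replicate 1 was the only library above 3.44%. Nuclear members took 0.445% and 0.466%, 0.448% and 0.458%, 0.448% and 0.460%, and 0.489% and 0.455% in the same order, again highest in that library. The ratio of mitochondrially encoded to nuclear counts was 7.49 and 7.19, 7.69 and 6.86, 7.57 and 6.96, and 9.0 and 7.07, so replicate 1 was above replicate 2 in each group.

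Between genotypes neither share differed beyond the spread of the libraries. The mitochondrially encoded share averaged 3.55% ± 0.58 in KO and 3.32% ± 0.082 in controls (SD, n = 4 libraries each). The difference was 0.233 percentage points (exact two-sided permutation test within tissue, p = 0.722, adjusted over 6 comparisons p = 0.722). Without hippocampus KO replicate 1 the difference was -0.063. Within replicate numbers, KO minus control was 0.11 and -0.206 percentage points in cortex and 1.01 and 0.0171 in hippocampus (replicates 1 and 2). The nuclear share averaged 0.463% ± 0.018 in KO and 0.455% ± 0.0096 in controls (exact permutation p = 0.611, adjusted 0.722). The ratio averaged 7.65 ± 0.96 and 7.30 ± 0.28 (exact permutation p = 0.667, adjusted 0.722). With 36 arrangements the smallest p this test allows is 0.0556, so it could not reach 0.05.

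Between tissues the picture was alike. The mitochondrially encoded share averaged 3.55% ± 0.57 in hippocampus and 3.32% ± 0.13 in cortex (exact permutation within genotype, p = 0.722, adjusted 0.722), and the difference of 0.236 percentage points turned to -0.0596 without hippocampus KO replicate 1. The nuclear share averaged 0.463% ± 0.018 and 0.454% ± 0.0093 (exact permutation p = 0.5, adjusted 0.722), and the ratio 7.65 ± 0.94 and 7.30 ± 0.36 (exact permutation p = 0.667, adjusted 0.722).

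**Figure D2:**
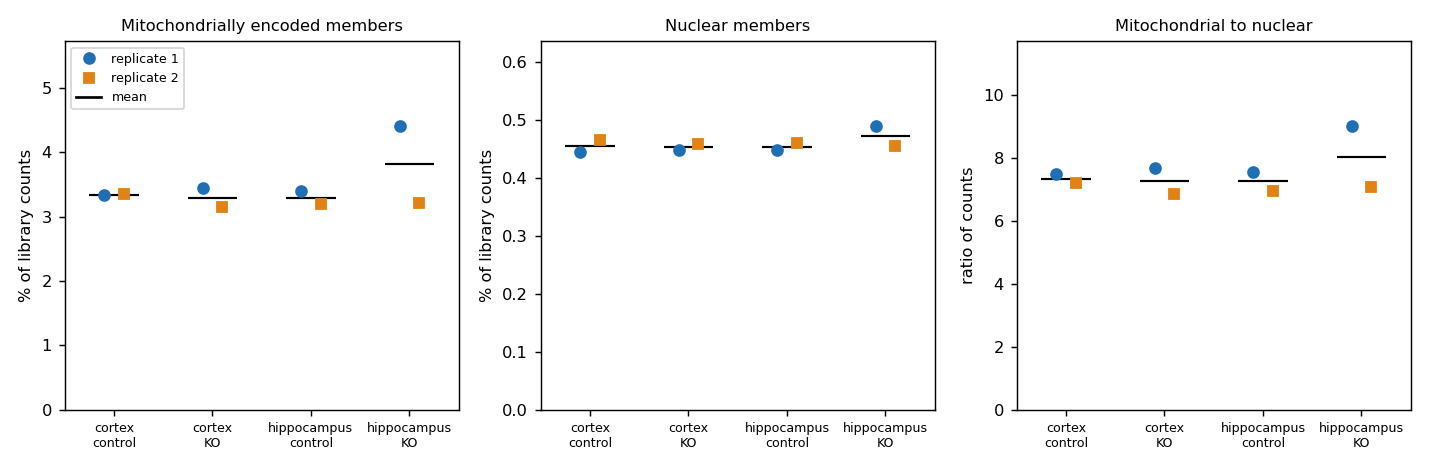
Percent of each library's counts in mitochondrially encoded (left) and nuclear members (middle), and their ratio (right), for the 4 groups, with replicate 1 as circles, replicate 2 as squares and the group mean as a line, on axes starting at 0. Hippocampus KO replicate 1 is the highest library in all 3 panels, at 4.40%, 0.489% and 9.0.

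By complex, the mitochondrially encoded counts fell mainly on complex IV. Its 3 Co genes took 1.84% to 1.92% of all counts in 7 libraries and 2.44% in hippocampus KO replicate 1. The Nd genes took 0.772% to 0.962% and 1.25%, mt-Cytb 0.395% to 0.467% and 0.570%, and the Atp genes 0.1003% to 0.113% and 0.142%. Every mitochondrially encoded class was therefore highest in that 1 library. Among nuclear members, complex I took 0.207% to 0.218% against 0.233% there, complex III 0.0702% to 0.0734% against 0.0762%, and complex II 0.0437% to 0.0488% against 0.0493%. Nuclear complex IV was 0.130% there, above the other hippocampus libraries (0.119% to 0.125%) but within the cortex range (0.124% to 0.131%).

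To set aside the total of the mitochondrially encoded counts, each gene was also expressed as a percent of them. mt-Co1 made up the largest part, 26.3% to 29.5% over the 8 libraries, followed by mt-Co3 (14.1% to 15.8%), mt-Co2 (13.6% to 15.2%), mt-Cytb (12.6% to 13.8%), mt-Nd4 (9.03% to 10.49%) and mt-Nd1 (5.97% to 7.31%). mt-Nd2 made up 4.38% to 4.996% and mt-Atp6 2.44% to 2.63%.

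mt-Nd3, a small membrane subunit of complex I, was 0.946% and 0.951% of mitochondrially encoded counts in cortex controls, against 1.11% and 1.13% with KO. In hippocampus it was 0.867% and 0.832% in control and 1.14% and 1.05% in KO. All 4 KO libraries lay above all 4 controls, which held for none of the other 11 mitochondrially encoded members with counts. For scale, in 6.32% of all genes tested both KO libraries passed both controls on scaled CPM, in the same direction in each tissue. That share is for separation within tissues, which mt-Nd3 also showed on scaled CPM. Across tissues its scaled CPM overlapped, with hippocampus KO replicate 2 below cortex control replicate 1. The gene was singled out after its values were seen, so the separation is a description without a test. The near-identical nuclear copy shown above, absent from the tables, limits how far these counts can be assigned.

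Several mitochondrially encoded members, long and short, differed by replicate number rather than by group. mt-Nd5, a proton-pumping subunit, made up 3.86%, 3.81%, 4.09% and 3.81% in replicate 1 of the 4 groups and 3.06%, 3.04%, 3.20% and 3.32% in replicate 2. mt-Nd1, mt-Nd2, mt-Nd4, mt-Nd6 and mt-Atp8 were likewise higher in replicate 1 in all 4 groups, and mt-Co1, mt-Co2, mt-Co3 and mt-Atp6 lower. For mt-Nd6 the gap was small in hippocampus KO, with 0.939% and 0.932%. mt-Atp8 made up 0.722% to 0.744% in replicate 1 and 0.636% to 0.658% in replicate 2. The labels give replicate 1 as 2 sequencing runs and replicate 2 as 1, and the part of that difference was not tested.

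**Figure D3:**
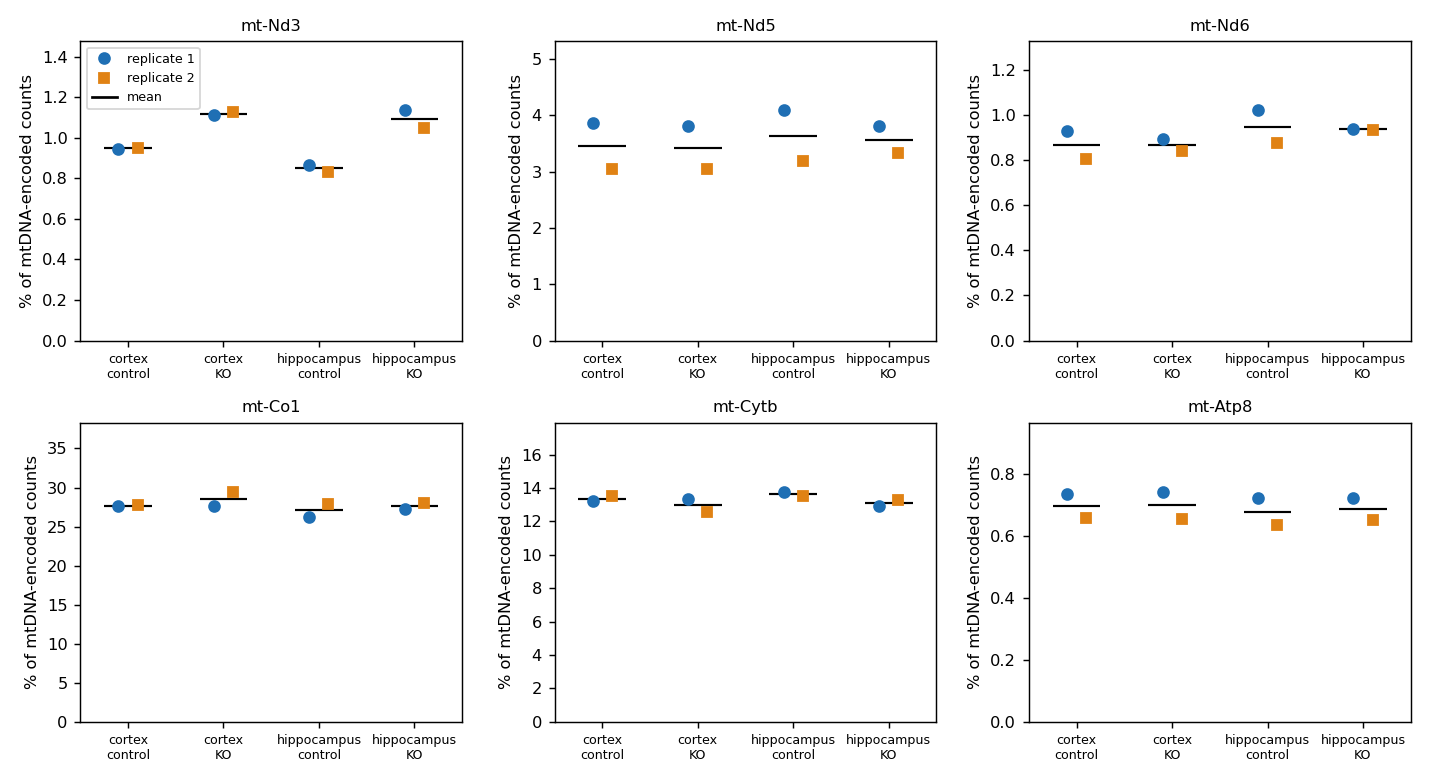
Percent of all mitochondrially encoded counts for 6 genes in the 4 groups, with replicate 1 as circles, replicate 2 as squares and the group mean as a line, on axes starting at 0. mt-Nd3 is higher in both KO groups, while mt-Nd5 and mt-Atp8 are higher in replicate 1 of each group.

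The first comparison asked whether loss of Srrm4 changed these genes in cortex. No member passed, 0 of 77 at an adjusted p under 0.05 (edgeR's quasi-likelihood test), where 0.0186% of all genes tested passed. None reached an unadjusted p under 0.05 either, against 1.14% of all genes, and DESeq2 and limma on RPKM also called 0. The median log2 fold change was 0.00 for nuclear and -0.02 for mitochondrially encoded members, beside 0.00 for all genes, and 62 of the 65 nuclear members lay within 0.2 of 0. The smallest p-values belonged to Ndufc2 (log2 fold change -0.12, SE 0.071), Ndufa13 (0.10, SE 0.069), mt-Nd3 (0.22, SE 0.16), Ndufa6 (0.10, SE 0.078) and Cox7a1 (-0.34, SE 0.32), each with an adjusted p of 1 in edgeR.

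In hippocampus again 0 of 77 members passed in edgeR, beside 0.0248% of all genes, and 0 in DESeq2 and limma. Before adjustment 2 of 77, mt-Nd3 and Ndufa6, lay under 0.05, beside 3.81% of all genes. All 12 mitochondrially encoded members had positive values with a median of 0.17 on the log2 scale, beside 0.00 for all genes. Without hippocampus KO replicate 1 this median was -0.07, and without KO replicate 2 it was 0.39. Without hippocampus control replicate 2 it was 0.09, and without control replicate 1 it was 0.29. Over nuclear members the median was 0.04, with 47 of 65 positive, and -0.02 without replicate 1. By complex it was 0.04 for complex I, -0.05 for complex II, 0.06 for complex III and 0.07 for complex IV.

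In the same comparison the median over cytosolic ribosomal protein genes was 0.16, and 72 of 73 were positive. The 1715 genes whose implied length is under 1000 nt had a median of 0.06, and the 4134 genes of the longest class one of -0.02. Hippocampus KO replicate 1 was the highest library for both the ribosomal and the short genes. On log2 CPM centred on each gene's mean, the ribosomal median was 0.22 and -0.06 in KO (replicates 1 and 2) and -0.06 and -0.12 in control. For the genes under 1000 nt it was 0.13 and 0.05 in KO and 0.01 and 0.04 in control. Most nuclear members are short, with a median implied length of 826 nt among those of at least 5 RPKM. The part of transcript length in these values was not tested.

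The smallest p-values in hippocampus belonged to mt-Nd3 (log2 fold change 0.55, SE 0.16), Ndufa6 (0.21, SE 0.078), Cox7a2l (0.16, SE 0.076), Ndufa2 (0.15, SE 0.075) and Uqcrh (0.15, SE 0.085), all with an adjusted p of 0.99 in edgeR. mt-Nd3 RPKM was 984 and 891 in control and 1672 and 1128 in KO, and without hippocampus KO replicate 1 its log2 fold change was 0.25. Ndufa6, an accessory subunit of the LYR family in complex I, had 83.3 and 92.1 RPKM in control and 107 and 101 in KO. The groups did not overlap for either gene, but both were named for their small p in these same libraries, and their differences did not pass. The share of all genes that separate in this way within hippocampus alone is not given here.

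Over both tissues 0 of 77 members passed in edgeR, DESeq2 and limma, beside 0.0621% of all genes in edgeR. Unadjusted, 3 lay under 0.05, beside 4.43% of all genes. These were mt-Nd3 (log2 fold change 0.38, SE 0.12), Ndufa6 (0.16, SE 0.053) and Cox7a2l (0.12, SE 0.051), with an adjusted p of 0.99965 each in edgeR. For mt-Nd3 the value ranged from 0.23 to 0.45 over 15 other settings, with adjusted p-values from 0.376 to 1. Ndufa13 (0.09, SE 0.043), an accessory subunit needed for assembly of the complex, and Ndufa7 (0.11, SE 0.057) followed. On the scaled CPM, 4 of 77 members (5.19%) showed KO libraries outside the control range in the same direction in each tissue, beside 6.32% of all genes. They were mt-Nd3, Ndufa6, Ndufa13 and Cox7a2l, all higher in KO. Erythroid markers had the same order, with sums of 61.4 to 101 CPM in the 4 KO libraries and 44.7 to 58.4 CPM in the 4 controls, 7 of 7 positive (median log2 fold change 0.58) and 5 of 7 under an unadjusted p of 0.05. Of the other lists, 6 of 6 microglia markers (median 0.19) and 70 of 73 cytosolic ribosomal protein genes (0.11) were positive, and 9 of 10 neuron markers negative (-0.08). No gene of these 4 lists passed after adjustment in edgeR, and their part in the order of the 4 members was not tested. Median changes were 0.01 for nuclear and 0.08 for mitochondrially encoded members, the latter -0.03 without hippocampus KO replicate 1.

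The difference of the KO effect between the tissues was called for 0 of 77 members in edgeR, DESeq2 and limma, beside 0.0% of all genes in edgeR, and no member had an unadjusted p under 0.05 (0.981% of all genes did). The smallest p belonged to Cox7b (0.18, SE 0.12), Ndufa2 (0.16, SE 0.11), Ndufa11 (0.13, SE 0.094), Cox7a1 (0.60, SE 0.43) and Ndufb4 (0.14, SE 0.10), where the values are KO effect in hippocampus minus that in cortex on the log2 scale.

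**Figure D4:**
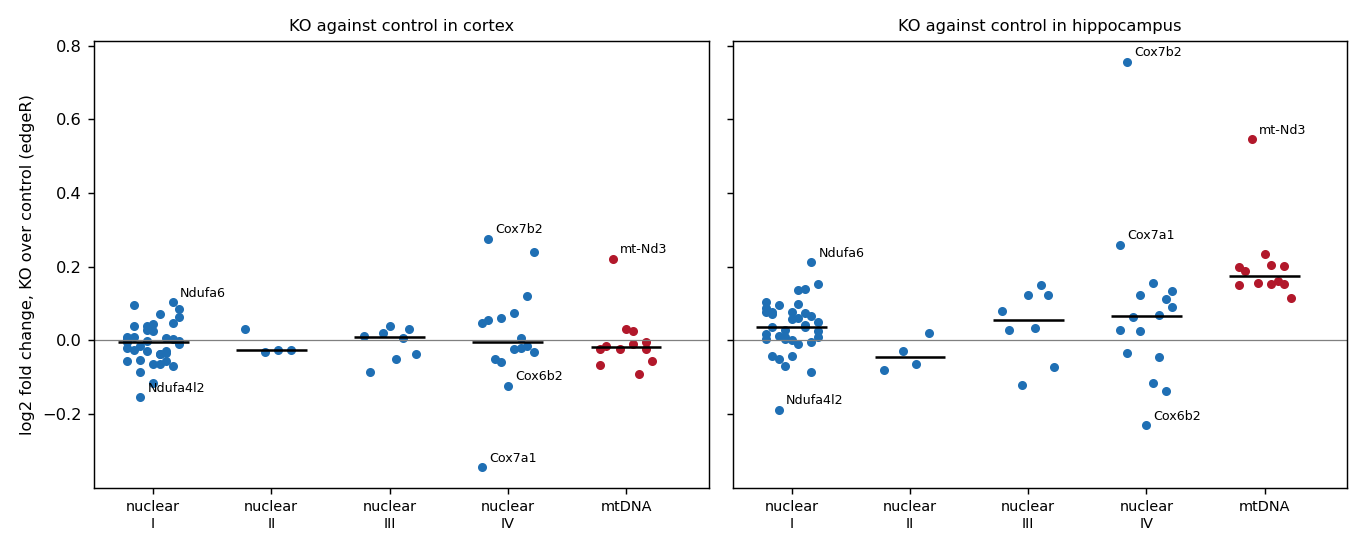
Log2 fold change of KO over control (edgeR) for the 77 tested members in cortex (left) and hippocampus (right), by complex for nuclear members (blue) and together for mtDNA members (red), with medians as black lines. In cortex the medians lie at 0, while all 12 mtDNA members are positive in hippocampus, with a median of 0.17 that becomes -0.07 without hippocampus KO replicate 1.

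The comparison of hippocampus with cortex called more members. Over both genotypes 17 of 77 members passed (22.1%), beside 54.1% of all genes tested, and all 17 were nuclear. The median absolute log2 difference was 0.09 for nuclear and 0.07 for mitochondrially encoded members, beside 0.27 for all genes. Of the 17, 6 were higher in hippocampus (Ndufa2, Ndufc2, Uqcr11, Cox4i2, Cox6b2, Cox7a1) and 11 lower (Ndufa5, Ndufa8, Ndufb8, Ndufb9, Ndufb10, Uqcrc1, Cox5a, Cox5b, Cox6a1, Cox6a2, Cox8a). The split between higher and lower depended on scaling. It was 6 and 11 with TMM, 4 and 17 with DESeq2, 9 and 5 with upper-quartile scaling and 12 and 2 with limma on RPKM. No called member changed sign between these scalings. TMM factors were 0.956 to 0.984 in cortex and 1.00 to 1.05 in hippocampus, so that deposited RPKM, which lacks them, places hippocampus higher than the fit does.

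The median over nuclear members was -0.06 with TMM, -0.01 with upper-quartile scaling and 0.02 in limma on log2(RPKM + 1), where the median of all genes was 0.02, 0.08 and 0.07. Relative to all genes the nuclear median therefore lay at -0.09, -0.09 and -0.04. With DESeq2 it lay at -0.09 and in limma on log2(RPKM + 0.1) at -0.08. For mitochondrially encoded members the median was 0.00, with 6 of 12 positive, and without hippocampus KO replicate 1 it was -0.12. In that fit 30 members passed, with 5 nuclear higher, 22 nuclear lower and 3 mitochondrially encoded lower (mt-Nd3, mt-Co3 and mt-Atp6). Neuron markers were lower in every hippocampus library, at 6941 to 7492 CPM against 8483 to 8990 CPM in cortex, with 9 of 10 called lower and a median of -0.33. Their part in the lower values of the 11 members and of the ATP synthase genes below was not tested.

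In complex I the clearest gene was Ndufc2, an accessory subunit of the membrane arm. In cortex its RPKM was 94.1 and 106 for controls and 90 and 93.9 for KO, and in hippocampus 119.5 and 126 for controls and 129 and 121 for KO. All 4 hippocampus libraries lay above all 4 cortex libraries. The log2 fold change was 0.28 (SE 0.05, edgeR adjusted p = 0.001), and it passed in all 16 other settings. Ndufa2, a small subunit with a thioredoxin-like fold, had 91.8, 100, 90.4 and 101 RPKM in the cortex libraries and 108, 108, 124 and 121 in hippocampus, again without overlap (0.18, SE 0.054, edgeR adjusted p = 0.020).

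Ndufa5 and Ndufb9 went the other way. Ndufa5, of the peripheral arm, had 39.9, 45.3, 39.8 and 43.9 RPKM in cortex and 34.5, 39.8, 40.4 and 35.5 in hippocampus, which overlap in RPKM (log2 fold change -0.26, SE 0.063, edgeR adjusted p = 0.007). Ndufb9, another LYR-family subunit, had 139, 146, 140 and 143 in cortex and 130, 126, 143 and 123 in hippocampus, where the highest value is KO replicate 1 (-0.21, SE 0.053, edgeR adjusted p = 0.0083). Ndufb10 (-0.17), Ndufa8 (-0.15) and Ndufb8 (-0.15) passed with smaller values, each in at most 10 of the 16 other settings. None of the 7 nuclear core subunits passed, with a median of -0.08 and 6 of 7 negative.

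Complex II did not contribute, with 0 of 4 members called and a median of 0.01. Sdha, its flavoprotein, had 65.6, 61.2, 66.6 and 62.6 RPKM in cortex and 75.3, 70.1, 72.1 and 68.5 in hippocampus, which do not overlap in RPKM but did not pass after scaling.

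In complex III, Uqcrc1, a core protein that anchors the matrix side, had 91.3, 83.2, 90.4 and 86.2 RPKM in cortex and 84.5, 80.1, 75.8 and 78.8 in hippocampus. Only hippocampus control replicate 1 reached into the cortex range in RPKM, and after scaling it lay just below that range. The log2 fold change was -0.23 (SE 0.061, edgeR adjusted p = 0.011), and it passed in all 16 other settings. Uqcr11, a very small subunit, had 102, 111, 102 and 116 RPKM in cortex and 118, 123, 132 and 136 in hippocampus (0.15, SE 0.052, edgeR adjusted p = 0.035). The tissues did not overlap in RPKM, but after scaling cortex KO replicate 2 lay slightly above both hippocampus control libraries.

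Complex IV held both the largest rises and the largest fall, all in minor isoforms. Cox4i2 had 1.37, 1.73, 1.54 and 1.81 RPKM in cortex and 2.45, 2.60, 2.36 and 2.33 in hippocampus, without overlap, on 77 to 202 counts (log2 fold change 0.52, SE 0.12, edgeR adjusted p = 0.005). Cox6b2 had 1.14, 1.28, 0.94 and 1.33 against 1.76, 2.73, 1.51 and 2.43 (0.74, SE 0.21, edgeR adjusted p = 0.014). Both rose without overlap, and both passed in at least 15 of 16 other settings.

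Cox7a1 had 1.39, 2.33, 1.36 and 1.47 RPKM in cortex and 1.83, 2.96, 2.74 and 3.0 in hippocampus, and cortex control replicate 2 lies within the hippocampus range (0.61, SE 0.22, edgeR adjusted p = 0.044). Cox6a2 had 0.34, 0.17, 0.31 and 0.35 RPKM in cortex and 0.15, 0.17, 0.19 and 0.15 in hippocampus, on 5 to 27 counts a library (-0.93, SE 0.28, edgeR adjusted p = 0.018). Muscle markers (5 genes) summed to 2.82 to 3.43 CPM in cortex and 2.01 to 2.67 CPM in hippocampus, and the part of other cell types in these isoforms was not tested. Endothelium and pericyte markers (5 genes, none at 0) summed to 214 to 228 CPM in cortex and 312 to 331 CPM in hippocampus, and their part in the Cox4i2 values was not tested.

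Of the main subunits, Cox5a, a subunit on the matrix side, had 199, 224, 198 and 217 RPKM in cortex and 178, 212, 174 and 194 in hippocampus (log2 fold change -0.23, SE 0.065, edgeR adjusted p = 0.013). The tissues overlap in RPKM. Cox8a had 231, 236, 234 and 235 against 225, 230, 231 and 219, narrowly without overlap (-0.14, SE 0.039, edgeR adjusted p = 0.014). The Cox8a call held in 1 of the 4 other scalings, over which its value lay between -0.16 and -0.05 and its adjusted p reached 0.318. Cox5a, Ndufa5 and Ndufb9 passed in 2 of the 4. Cox6a1 (-0.16, SE 0.053) and Cox5b (-0.16, SE 0.061), which passed with adjusted p-values of 0.026 and 0.0498 in edgeR, did so in 9 and 4 of the 16 other settings. Cox4i1, Cox6b1 and the other main subunits did not pass.

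**Figure D5:**
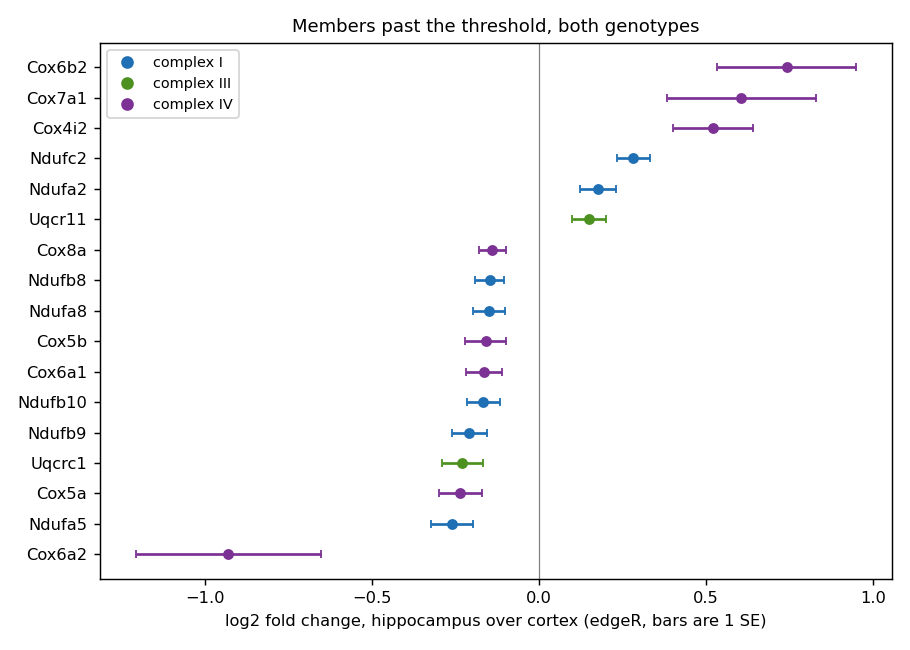
Log2 fold change of hippocampus over cortex (edgeR, both genotypes) for the 17 members that passed, with bars of 1 SE and colours for complexes I, III and IV. The minor isoforms Cox6b2, Cox7a1, Cox4i2 and Cox6a2 lie farthest from 0, and the others lie between -0.26 and 0.28.

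Calls near the threshold moved when single libraries were left out, and 7 of the 17 held in all 8 such fits (Ndufa5, Ndufb9, Ndufc2, Uqcrc1, Cox4i2, Cox5a and Cox8a). Of all 17, 5 passed under all 4 other scalings (Ndufa2, Ndufc2, Uqcrc1, Cox4i2 and Cox6b2). Cox6b2 and Cox6a2 lost the call only without cortex control replicate 1 (adjusted p = 0.051 and 0.088, edgeR). Ndufa2 lost it without replicate 1 of either cortex group (0.056 and 0.057) or hippocampus KO replicate 2 (0.055). Without cortex control replicate 1, cortex KO replicate 1 or hippocampus control replicate 2, calls were also lost for Uqcr11 (0.094, 0.099 and 0.068), Ndufa8 (0.081, 0.079 and 0.056), Ndufb8 (0.060, 0.054 and 0.061), Ndufb10 (0.060, 0.052 and 0.059), Cox6a1 (0.077, 0.052 and 0.064), Cox5b (0.124, 0.112 and 0.053) and Cox7a1 (0.128, 0.135 and 0.116). Further losses came without cortex KO replicate 2 for Ndufa8 (0.055), Cox6a1 (0.085), Cox5b (0.086) and Cox7a1 (0.097), and without hippocampus KO replicate 2 for Uqcr11 (0.104), Ndufb10 (0.0504), Cox5b (0.128) and Cox7a1 (0.095). Uqcr11 (0.057) and Cox5b (0.132) also lost it without hippocampus control replicate 1, Cox5b without cortex control replicate 2 (0.060) and Cox7a1 without hippocampus KO replicate 1 (0.101).

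Within controls alone, 2 of 77 members passed (2.6%), beside 33.9% of all genes. These were Cox4i2 (log2 fold change 0.65, SE 0.17, edgeR adjusted p = 0.020) and Ndufc2 (0.22, SE 0.071, edgeR adjusted p = 0.042). Ndufb9 (-0.23), Ndufa5 (-0.27) and Cox6b2 (0.79) had the next smallest p and did not pass in this fit. Without cortex control replicate 1 or either hippocampus control library no member passed. Within KO, 6 members passed (7.79%), beside 40.0% of all genes. Ndufc2 (0.34), Ndufa2 (0.25) and Cox7a1 (0.91) were higher, and Uqcrc1 (-0.30), Cox5a (-0.28) and Ndufa8 (-0.20) lower. Without cortex KO replicate 1 only Ndufc2 remained called (adjusted p = 0.044, edgeR), and without hippocampus KO replicate 1 a total of 2 members passed. The split in KO was 3 higher and 3 lower with TMM, 2 and 6 with DESeq2, 5 and 0 with upper-quartile scaling and 9 and 0 with limma on RPKM. The 2 tissue comparisons were not called different for any member, since that difference is the interaction given above.

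The wider pathway was read from lists of related genes. No member of any of the 5 lists (nuclear ATP synthase, 19 tested; assembly factors, 47; electron carriers and coenzyme Q synthesis, 20; maintenance and expression of mitochondrial DNA, 29; nuclear regulators, 14) passed in the KO comparisons (edgeR). Before adjustment 1 listed gene, Coa4, a complex IV assembly factor, lay under 0.05, in cortex (log2 fold change 0.35) and over both tissues (0.34). Between tissues over both genotypes, where 54.1% of all genes passed, the share called was 26.3% of the ATP synthase genes, 40% of the carriers, 23.4% of the assembly factors, 17.2% of the genes for mitochondrial DNA, 50% of the regulators and 20.3% of the mitochondrial ribosomal proteins, each below the share over all genes (edgeR with TMM). The splits between higher and lower again depended on scaling, though no listed gene called with TMM changed sign. Of the ATP synthase genes 0 were higher and 5 lower, namely Atp5a1, Atp5b, Atp5c1, Atp5f1 and Atp5g1, with log2 fold changes from -0.14 to -0.21. The split was 0 and 6 with DESeq2, 1 and 2 with upper-quartile scaling and 1 and 1 with limma on log2(RPKM + 1). Atp5b, the catalytic beta subunit, was the most highly expressed of the list at 483 RPKM, followed by the inhibitor gene Atpif1 at 411. Mitochondrial ribosomal proteins had 11 higher and 4 lower of 74, but 9 and 10 with DESeq2, 23 and 3 with upper-quartile scaling and 27 and 2 with limma.

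Among the carriers, Etfa (0.58) and Etfb (0.76), the flavoprotein that passes electrons from fatty acid oxidation, and Etfdh (0.26), its dehydrogenase, were higher in hippocampus. So was Coq9 (0.20), while Coq3 (-0.16), Coq4 (-0.27) and Pdss2 (-0.22) were lower. Aox1 (1.36), also higher, was in this list but encodes an aldehyde oxidase, neither a respiratory carrier nor a coenzyme Q gene. With Aox1 counted, as in the share called above, the split was 5 and 3. It was the same with DESeq2, 7 and 1 with upper-quartile scaling and 8 and 1 with limma. Cyc1, cytochrome c1 of complex III, at 104 RPKM, and Higd2a at 64.9 RPKM were the most highly expressed of that list and did not pass. Astrocyte markers (5 genes) summed to 875 to 937 CPM in cortex and 1110 to 1437 CPM in hippocampus, and progenitor markers (8 genes) to 716 to 780 and 1539 to 1832 CPM. Their part in these differences was not tested.

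Among assembly factors 4 were higher (Cmc1, Cmc2, Ndufaf1, Ndufaf2) and 7 lower (Atpaf1, Coa7, Cox10, Ecsit, Ndufaf4, Ndufaf5, Oxa1l), from -0.43 for Coa7 to 0.44 for Cmc2, while the most highly expressed, Uqcc2 (96.7 RPKM) and Cox20 (66.2), did not pass. The split was 3 and 11 with DESeq2, 6 and 5 with upper-quartile scaling and 11 and 3 with limma. Among genes for mitochondrial DNA and RNA, Hsd17b10 (0.19) was higher, and Tfb1m (-0.31), which methylates mitochondrial ribosomal RNA, Fastkd1 (-0.24), Lrpprc (-0.23), which stabilises mitochondrial messengers, and Elac2 (-0.15) were lower. Grsf1, at 28.3 RPKM, did not pass. In place of 1 and 4, DESeq2 gave 2 and 5, upper-quartile scaling 3 and 2, and limma 4 and 0. Of the regulators, Ppargc1b (-0.84) and Ppargc1a (-0.29), coactivators of mitochondrial biogenesis, Myc (-0.66) and Yy1 (-0.17) were lower, and Ppara (0.39), Tfeb (0.38) and Sp1 (0.35) were higher. Creb1, at 17.2 RPKM, did not pass. In place of 3 and 4, DESeq2 gave 1 and 7, upper-quartile scaling 3 and 3, and limma 4 and 2.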

How the data were processed

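Counts and RPKM were taken from 8 deposited tables for 12 samples, since both runs of replicate 1 of each group share 1 table. The authors' count column holds whole-number read counts per Ensembl gene, as deposited. The deposited RPKM column was made by the authors from these counts, and the length each gene's RPKM implies was the same in every table. It also holds the text "ne" in 1114 cells per table, which no source used here explains; these cells were treated as missing. Blank counts were read as 0. The submitters' processing notes name Bowtie and mm9; for version, counting rule, strand and annotation: not given in the sources used here. Symbols came from GENCODE M21 (20759 of 22667 IDs matched), and its GRCm38 coordinates were used only for the sequences shown.

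Genes passing filterByExpr (minimum count 10, minimum total 15, 16111 genes) were tested in edgeR 4.0.16 (R 4.3.3) by its quasi-likelihood test with TMM scaling. One fit of the 4 group means gave the KO effects, their interaction and the tissue effects per genotype, and an additive fit gave the effects over both tissues or genotypes. P-values are two-sided and Benjamini-Hochberg adjusted over all genes, with a threshold of 0.05. SE is the log2 fold change divided by the square root of F. The fit was tested on simulated data. Shares of counts were compared by exact permutation within tissue or genotype. Alternatives were DESeq2 1.42.0, upper-quartile scaling, omission of mitochondrial genes, limma 3.58.1 on log2(RPKM + 1) and log2(RPKM + 0.1), other filters, a replicate block, the 4 libraries of a comparison alone and leaving out each library. Fold changes on log2(RPKM + pseudocount) understate low genes.

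Members and lists were chosen with earlier results of these data known. Named genes are all mitochondrially encoded members, the 4 most highly expressed nuclear members of each class, all that passed (up to 12 per comparison by smallest p, the others named to account for every call), the 5 with the smallest p where fewer passed, members below the filter, the isoform pairs and, of related lists, the 2 highest and those that passed; ribosomal lists are given as counts. One gene that this rule names is not reported here.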

Additional observations from a re-analysis of the deposited data

How the results depend on the processing

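No setting called a member in any KO comparison or in the interaction. Counts of members called between tissues moved as follows. In controls (2 called), 1 passed with no filter on low counts, 6 with the replicate block, and 0 to 5 when single libraries were left out. In KO (6 called), 15 passed with the replicate block, 1 of them mitochondrially encoded (mt-Nd6), 2 on the 4 libraries of the comparison alone, and 1 to 6 when single libraries were left out. Over both genotypes (17 called), 22 passed with the replicate block and 7 (without cortex control replicate 1) to 30 (without hippocampus KO replicate 1) when single libraries were left out. Labels number the 2 replicates of each group alike but do not say that a number marks a shared animal or batch. Deviations of same-numbered libraries correlated over genes at 0.368 in controls and 0.380 in KO between the tissues of a genotype. Other pairs gave 0.096 to 0.282. Y-linked sums in cortex and hippocampus were 144 and 148 CPM in control replicate 2 and 0.319 and 0.412 CPM in KO replicate 2. In replicate 1 they were 35.3 and 39.6 CPM in controls and 25.4 and 49.8 CPM in KO. The fits without the block and the share tests treat all libraries as independent, which shared embryos would not be. With the block the genes called over all 16111 for KO over both tissues went from 10 to 22, with 0 members among them. Differences in shares turned direction in 1 kind of fit, without hippocampus KO replicate 1: the range over left-out libraries was -0.063 to 0.528 percentage points for the mitochondrially encoded share between genotypes, -0.0596 to 0.532 percentage points between tissues, -0.0007 to 0.0161 percentage points for the nuclear share between genotypes, and -0.129 to 0.838 and -0.141 to 0.826 for the ratio between genotypes and tissues. Sums of RPKM or leaving out mt-Co1 and Cox4i1 kept all 6 directions. The cause of these changes was not tested, beyond the fewer samples of the fits without a library. Floors cover counting error only, SEs include the spread between libraries, and at 4 to 27 counts a library Cox6a2 and Cox7b2 are the tested members that depth limits most.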
